A study of Zea mays with 6 samples.

Results

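The regions described here are stretches of maize chromatin that carried acetylation of histone H3 at lysine 9 (H3K9ac) but no overlapping trimethylation of histone H3 at lysine 4 (H3K4me3), at genes that bore H3K4me3 elsewhere. A region was taken when it shared no base with any H3K4me3 region of its chromosome and when the gene that the deposited table names as next to it was also the next gene of at least 1 H3K4me3 region. Of 43734 H3K9ac regions, 5670 met both conditions, or 13.0%, and they lay at 4478 genes. The other H3K9ac regions were 30222 that overlapped H3K4me3 by at least 1 bp and 7842 H3K9ac-only regions, of which 8 had no gene and the rest lay at genes without an H3K4me3 region. The selection used positions and gene names and no zone difference. A region had to be in the authors' H3K9ac table, however, so a weak one may have entered through its higher zone alone. The part of this in the gained and lost shares was not tested.

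All material came from the third leaf of maize inbred line B73, harvested fully expanded at 13 to 14 days after sowing. Days had 16 h of light (25 °C, 130 µmol photons m-2 s-1) and nights 8 h (20 °C). For the maturing zone, 4 cm of the lit blade were cut at mid-length, while base samples were the bottom 1 to 2 cm, kept from light. Chromatin was pooled from 10 plants per replicate and RNA from 6, and the 6 samples of the study are the 2 zones read for H3K9ac, H3K4me3 and RNA. Zone, light and tissue age differ together between the groups and cannot be told apart.

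Acetylation of H3 lysine 9 loosens the contact between histones and DNA and is found at the 5′ ends of active genes and at distal regulatory elements. Trimethylation of H3 lysine 4 is laid down around transcription start sites and is the usual mark of promoters, so an acetylated stretch without it often lies in a gene body, further upstream or at an enhancer. The maize leaf grows from its base, and cells that move up the blade build C4 photosynthesis: carbon dioxide is fixed into C4 acids in mesophyll cells and released next to Rubisco in bundle sheath cells.

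Chromatin values are the authors' average normalized reads per region and zone, with no replicate values, so they carry no standard deviation. A region is called gained when it was higher in the maturing zone, and lost when it was lower, at an FDR under 0.05 in the authors' deposited table; log2 differences are maturing zone minus base, computed from the averages. Each RNA zone had 2 libraries (A and B) of 18325106 to 50657759 exon reads. Both zones are whole tissue, so fewer cells of a type and less signal per cell cannot be told apart. The 4 fixed mesophyll markers summed to 128 and 158 CPM (library-scaled read counts) in the base libraries and to 65745 and 97516 CPM in the maturing zone libraries, and the 4 bundle sheath markers summed to 166 and 468 CPM and to 37079 and 57960 CPM. All 8 were measured and higher in the maturing zone by edgeR, none was at 0, and 6 of them carry the regions described here; the part of cell composition in the results was not tested.

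The regions were weak, near H3K4me3 and about as wide as other H3K9ac regions. Their median width was 645 bp, against 655 bp for regions that overlapped H3K4me3 and 650 bp for all H3K9ac regions. The median gap to the nearest H3K4me3 region was 1724 bp, with 10th and 90th percentiles of 372 and 8221 bp. The nearest H3K4me3 region belonged to the same gene for 5370 regions (94.7%). A single such region was present at 3605 genes, 2 at 659 genes and 3 or more at 214. The median average signal was 78.0 at the base and 91.0 in the maturing zone, against 358 and 312 at overlapping regions. H3K9ac-only regions at other genes were as weak, with medians of 74.4 and 87.0. The genes differed, however: 87.4% of the regions lay next to genes that the table classes as protein coding, against 78.2% of overlapping regions and 28.7% of H3K9ac-only regions at other genes.

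**Figure D1:**
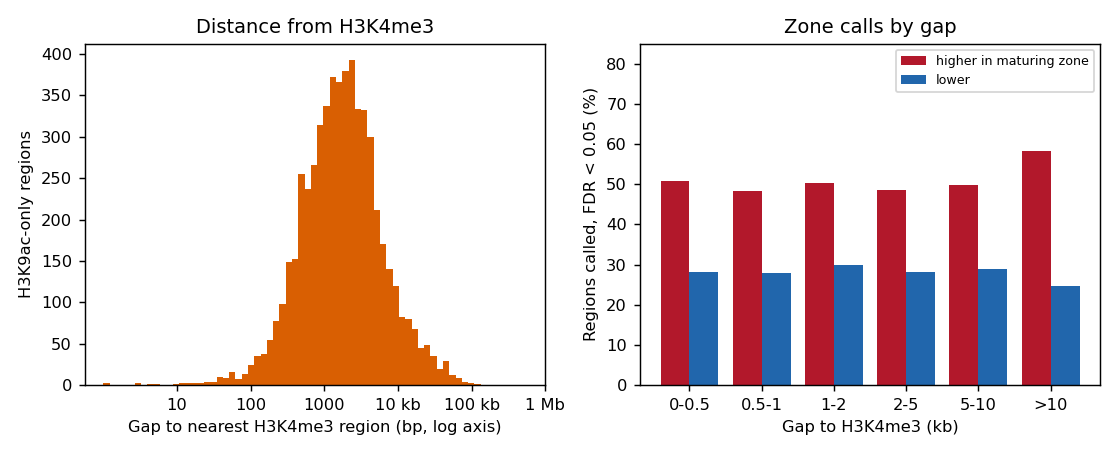
Left, the number of H3K9ac-only regions by their gap to the nearest H3K4me3 region in bp on a log axis, with a single hump around the median of 1724 bp. Right, the percentage of regions called gained or lost in the authors' deposited table by gap: gained regions made up 48.4% to 58.2% in every bin.

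H3K9ac without H3K4me3 was mainly higher in the maturing zone. Of the 5670 regions, 2843 were gained in the authors' deposited table (50.1%), where 33.0% of all H3K9ac regions were. Lost regions numbered 1606 (28.3%), where 33.8% of all H3K9ac regions were lost, and 1221 were not called. At overlapping regions the balance was the other way, with 25.3% gained and 35.8% lost. With a 2-fold difference required as well, 2058 were gained (36.3%, against 19.7% of all H3K9ac regions) and 1077 lost (19.0%, against 20.1%). The median log2 difference was 0.47, against -0.07 at overlapping regions and 0.01 over all H3K9ac regions. H3K9ac-only regions at genes without H3K4me3 gave 50.6% gained and 30.1% lost, so gained regions outnumbered lost ones at both kinds of gene. Regions share their libraries and are not replicates, so no test was run between the kinds of region.

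Because these regions were weak, they were set beside overlapping regions of like mean signal, in 4 bins that each hold the same number of all H3K9ac regions. In the bin of lowest signal 53.0% of 3275 regions were gained, against 32.3% of overlapping regions. In the next bin the shares were 44.4% and 31.0%, and in the one after it 55.8% and 24.7%. The bin of highest signal held 32 of the regions, of which 53.1% were gained against 20.5% of overlapping regions. The gained share was above that of overlapping regions in each bin. The bins rest on the same averages as the zone differences, so they do not set aside regions that entered the table through their higher zone alone.

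**Figure D2:**
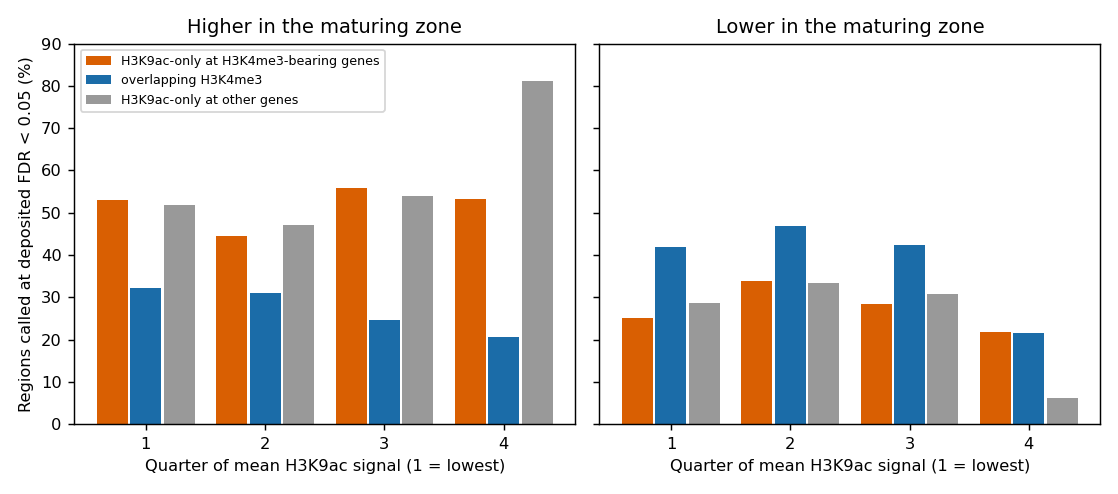
Percentage of H3K9ac regions called gained (left) or lost (right) in the authors' deposited table, by bin of mean signal (4 bins of equal number) over all H3K9ac regions and by overlap with H3K4me3. The gained bars of H3K9ac-only regions at H3K4me3-bearing genes stand at 44.4% to 55.8%, above the 20.5% to 32.3% of overlapping regions.

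The gained share varied little with distance from H3K4me3 up to 10000 bp, from 48.4% to 50.9% per bin. Beyond 10000 bp 58.2% of 450 regions were gained, and their median signal was 60.8 at the base and 93.3 in the maturing zone. Close to the limit of the selection, the 225 regions under 200 bp from H3K4me3 were gained in 53.3% and had a median log2 difference of 0.57. The 95 H3K9ac regions that overlapped H3K4me3 by under 200 bp were gained in 56.8%, with a median of 0.71. Regions on either side of the limit therefore had similar values, and slight overlap did not give the balance seen over all overlapping regions. Across the 10 chromosomes the gained share ran from 44.4% on chromosome 4 to 56.3% on chromosome 9, and by gene class it was 50.3% at protein-coding genes and 52.7% at transposable elements.

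The gained share was higher where a gene had more of these regions. It was 47.5% where a gene had 1 region, 53.2% where it had 2 and 57.7% where it had 3 or more. Of 659 genes with 2 regions, both were gained at 261 and both lost at 103, while 1 was gained and 1 lost at 70. Either a single region or neither was called at the remaining 225 genes. The regions of these genes were 53.2% gained and 27.2% lost. Such shares alone give many like calls, and a departure from them was not tested.

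Each region was then compared with the H3K9ac region of the same gene that overlapped H3K4me3, taking the one of highest mean signal where there were several. Such a partner existed for 5484 regions at 4319 genes, and for 186 regions it did not. The H3K9ac-only region had at median 20.5% of its partner's signal at the base and 28.5% in the maturing zone. Its log2 difference was above that of its partner in 3619 pairs (66.0%), with a median difference of 0.57 and quartiles at -0.37 and 1.57. In the 1090 pairs whose mean signals lay within 2-fold of each other the median difference was 0.55. Pairs shared direction only loosely, with Pearson's r of 0.46 and Spearman's rho of 0.41 across 5484 pairs, which come from the same libraries and share genes.

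The calls of paired regions were alike in some pairs and unlike in others. Of the H3K9ac-only regions with a partner 50.3% were gained and 28.4% lost, against 26.4% and 36.3% of the partners. Such shares alone give many unlike calls, and a departure from them was not tested. Both regions were gained in 1046 pairs (19.1%) and both lost in 902 (16.4%). The H3K9ac-only region was called in 1528 pairs whose partner was not called, 1066 of them gained and 462 lost. The regions were called in opposite directions in 842 pairs: 649 had a gained H3K9ac-only region beside a lost partner and 193 the reverse. The H3K9ac-only region stood above its partner in 299 pairs in the base (5.45%) and in 586 in the maturing zone (10.7%). In 478 pairs it passed from below its partner in the base to above it in the maturing zone, and in 191 it did the reverse. At 854 genes with several H3K9ac-only regions and a partner, these lay on both sides of the partner in 261.

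**Figure D3:**
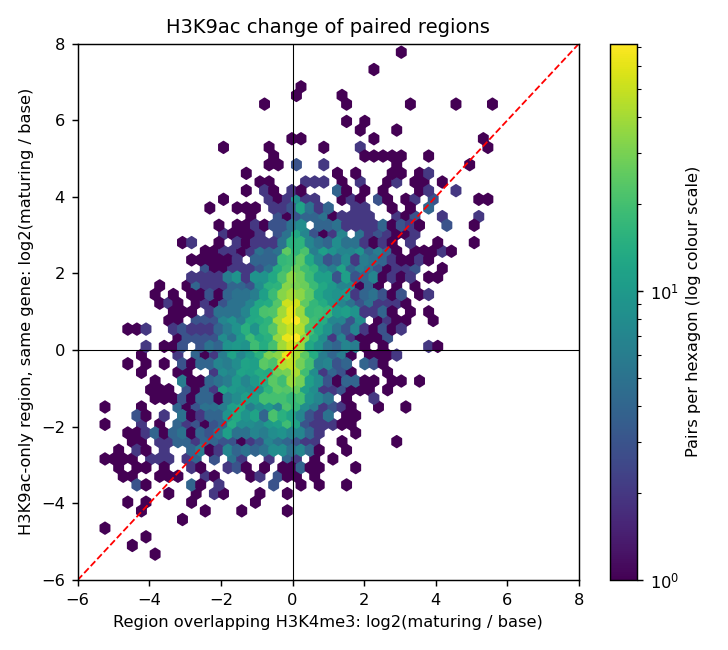
Log2 difference in H3K9ac, maturing zone over base, of each H3K9ac-only region (vertical axis) against that of the region of the same gene that overlaps H3K4me3 (horizontal axis), for 5484 pairs binned in hexagons coloured by the number of pairs on a log scale. The dashed line marks equal differences, and 66.0% of pairs lie above it.

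Of 17 listed genes of the C4 cycle, 12 had such regions, 20 in all, where 15.0% of all genes with H3K4me3 had one. Calls in the authors' deposited table were 15 gained, 2 lost and 3 not called, with a median log2 difference of 2.33, where 33.0% of all H3K9ac regions and 50.1% of all these regions were gained. The 22 regions of the 17 genes that overlapped H3K4me3 had 15 gained, 3 lost and 4 not called, with a median of 1.23. The H3K9ac-only region had the higher log2 difference in 18 of 20 pairs, where 66.0% of all pairs did. In 15 it was above every overlapping region of the gene, since some genes have several. The 20 pairs come from 12 genes, and regions of a gene share a partner, so the pairs are not separate observations. The list was drawn up with results of these data known, and its direction is no independent evidence. Of the 12 genes, 10 had higher transcript levels in the maturing zone by edgeR and none had lower ones, where 13.5% of all genes tested were higher.

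The gene for phosphoenolpyruvate carboxylase (PEPC, GRMZM2G083841), which fixes bicarbonate in mesophyll cells, had 3 such regions around its H3K4me3 region at chr9:62305883-62307051. The farthest, chr9:62303432-62304170, lay 1712 bp away and averaged 1.54 at the base and 314 in the maturing zone. The next, chr9:62304721-62305219, averaged 4.82 and 162. The third, chr9:62307761-62308330 on the other side, averaged 15.2 and 168. All 3 were gained, by 7.67, 5.07 and 3.47 on the log2 scale, while the region over H3K4me3 went from 22.5 to 178, or 2.99. In the base the signal thus stood highest over H3K4me3 and fell off to either side, and in the maturing zone the farthest region was the highest of the 4. The first base average is close to the lowest in the table, 1.1, so that its ratio is loosely set.

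Phosphoenolpyruvate carboxykinase (PEPCK, GRMZM2G001696), a decarboxylase of bundle sheath cells, had 1 region, chr1:35749487-35750157, 702 bp from H3K4me3. It averaged 7.06 at the base and 611 in the maturing zone, or 6.44 on the log2 scale. Its partner went from 26.9 to 264, or 3.29, and the other overlapping region from 27.7 to 251, or 3.18. The order of the pair thus turned over: the H3K9ac-only region was the lower one at the base and the higher one further up. H3K4me3 under the partner was itself gained, from 1.5 to 82.9 in the maturing zone. At PEPC H3K4me3 was gained too, from 55.8 to 123.

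Pyruvate orthophosphate dikinase (PPDK, GRMZM2G306345), which regenerates phosphoenolpyruvate, had 1 region on each side of its 3 H3K4me3 regions. All 3 H3K4me3 regions were gained, from 1.5 to 135, from 2.23 to 114 and from 103 to 223. The region chr6:146190802-146191333, 826 bp away, averaged 1.97 at the base and 118 in the maturing zone, or 5.90 on the log2 scale. The region chr6:146182780-146183323, 2154 bp away, went from 17.1 to 74.6, or 2.13. The strongest region over H3K4me3 went from 161 to 665, or 2.04, and both H3K9ac-only regions stayed below it. The other overlapping regions went from 24.9 to 197, or 2.99, and from 7.53 to 86.9, or 3.53. The first H3K9ac-only region thus had the largest log2 difference of the gene, and the second differed less than these other overlapping regions. The base average of 1.97 is close to the lowest H3K9ac average, 1.1, so that the first ratio is loosely set. An H3K4me3 base average of 1.5, here and at PEPCK, is the lowest of all H3K4me3 regions at the base. The PPDK regulatory protein gene (PDRP1, GRMZM2G131286), whose product switches PPDK on and off in the light and dark, had a region that went from 23.1 to 412, or 4.16, beside a partner that went from 236 to 568, or 1.27. H3K4me3 at PDRP1 averaged 314 and 319 and was not called.

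NADP-malic enzyme (NADP-ME, GRMZM2G085019), the main decarboxylase of maize bundle sheath, had a region that averaged 14.6 at the base and 240 in the maturing zone, or 4.04 on the log2 scale. Its partner rose from 166 to 457, or 1.46, and its H3K4me3, at 226 and 324, was not called. The paired acetylated regions differed more between the zones away from H3K4me3 than over it.

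Carbonic anhydrase, which supplies bicarbonate to PEPC, had regions at both listed genes. GRMZM2G121878 had 2 H3K4me3 regions, 1 gained from 20.1 to 231 and 1 not called, at 62.55 and 70.9. Of its 3 H3K9ac-only regions 1 lay between these. This one and the nearer of those on the outside lay 229 and 225 bp from H3K4me3, averaged 19.2 and 53.7 at the base and 189 and 225 in the maturing zone, and were gained by 3.29 and 2.07. The farthest, 2001 bp away, went from 70.9 to 100, or 0.50, which was less than the 1.20 and 1.51 of the regions over H3K4me3. At GRMZM2G348512 H3K4me3 was gained from 1.5, again the lowest base average of this mark, to 73.05 and from 88.1 to 386. The nearer H3K9ac-only region of this gene went from 22.1 to 128 and the farther from 32.6 to 74.0, or 2.53 and 1.18. The gene's stronger H3K9ac region over H3K4me3 went from 230 to 401, or 0.80. A weaker one went from 21.8 to 153, or 2.81, the largest H3K9ac log2 difference of the gene. At both genes the H3K9ac-only region farthest from H3K4me3 had the smallest log2 difference of these regions, whereas at PEPC the farthest had the largest.

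Transporters and regulators of the cycle were less uniform. The dicarboxylate transporter gene DCT1 (GRMZM2G040933) had 3 regions, which averaged 95.6, 383 and 289 at the base and 69.3, 289 and 233 in the maturing zone. The nearest was lost and the others were not called, beside a partner lost from 835 to 445. DCT1 transcripts stood at 21.9 and 35.6 CPM in base libraries and at 231 and 288 CPM in maturing zone libraries, or 3.17 on the log2 scale (SE 0.58, edgeR adjusted p = 0.0192), with an adjusted p of 0.0763 without base library A. Acetylation and transcript thus moved in opposite directions at this gene. DCT2 (GRMZM2G086258), another dicarboxylate transporter, had a region 10201 bp from H3K4me3 that went from 164 to 269 and was gained, by 0.72.

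Alanine aminotransferase (AlaAT, GRMZM2G088064), which interconverts pyruvate and alanine, held the other lost region of the list. It averaged 128 at the base and 34.1 in the maturing zone, or -1.91 on the log2 scale, while the partner, at 107 and 91.3, was not called. AlaAT transcripts were at 2.90 and 8.90 CPM in base libraries and at 158 and 840 CPM in maturing zone libraries, or 6.40 on the log2 scale (SE 1.25, edgeR adjusted p = 0.0216). The region of PEPC kinase (PPCK1, GRMZM2G178074), which phosphorylates PEPC, averaged 46.6 and 59.0 and was not called, beside a partner lost from 493 to 274. GRMZM2G305851, listed with the C4 genes and without a name in the reference table, had a region gained from 33.7 to 338 beside a partner, at 516 and 429, that was not called. Its transcripts, at 75.9 and 92.8 CPM at the base and 176 and 187 CPM in the maturing zone, did not pass the test (edgeR adjusted p = 0.146).

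Of the 5 listed Calvin cycle genes only RBCS1 (GRMZM2G098520), encoding a small subunit of Rubisco, had such regions, and both were gained. The region chr4:190226023-190226528, 2534 bp from H3K4me3, averaged 7.26 at the base and 202 in the maturing zone. The region chr4:190227731-190228251, 811 bp away, averaged 31.6 and 206. Their log2 differences were 4.79 and 2.71, while the partner, at 250 and 293, and H3K4me3, at 336 and 263, were not called. In the maturing zone acetylation thus extended at about 200 over the H3K9ac-only stretches, and in the base it was concentrated over H3K4me3. RBCS1 transcripts stood at 130 and 459 CPM at the base and at 8696 and 16266 CPM in the maturing zone (edgeR adjusted p = 0.0454), with an adjusted p of 0.0728 when base library A was left out and of 0.0503 when maturing zone library A was. Small subunit genes are near-identical, and reads could be shared among them.

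SCARECROW (SCR, GRMZM2G131516), a transcription factor of leaf vein and bundle sheath patterning, was the only 1 of 3 listed regulators with such regions. The nearer one was lost, from 101 to 41.5, as was the partner, from 406 to 147, and H3K4me3, from 128 to 38.3. The farther one, 3512 bp from H3K4me3, averaged 97.4 and 115 and was not called.

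**Figure D4:**
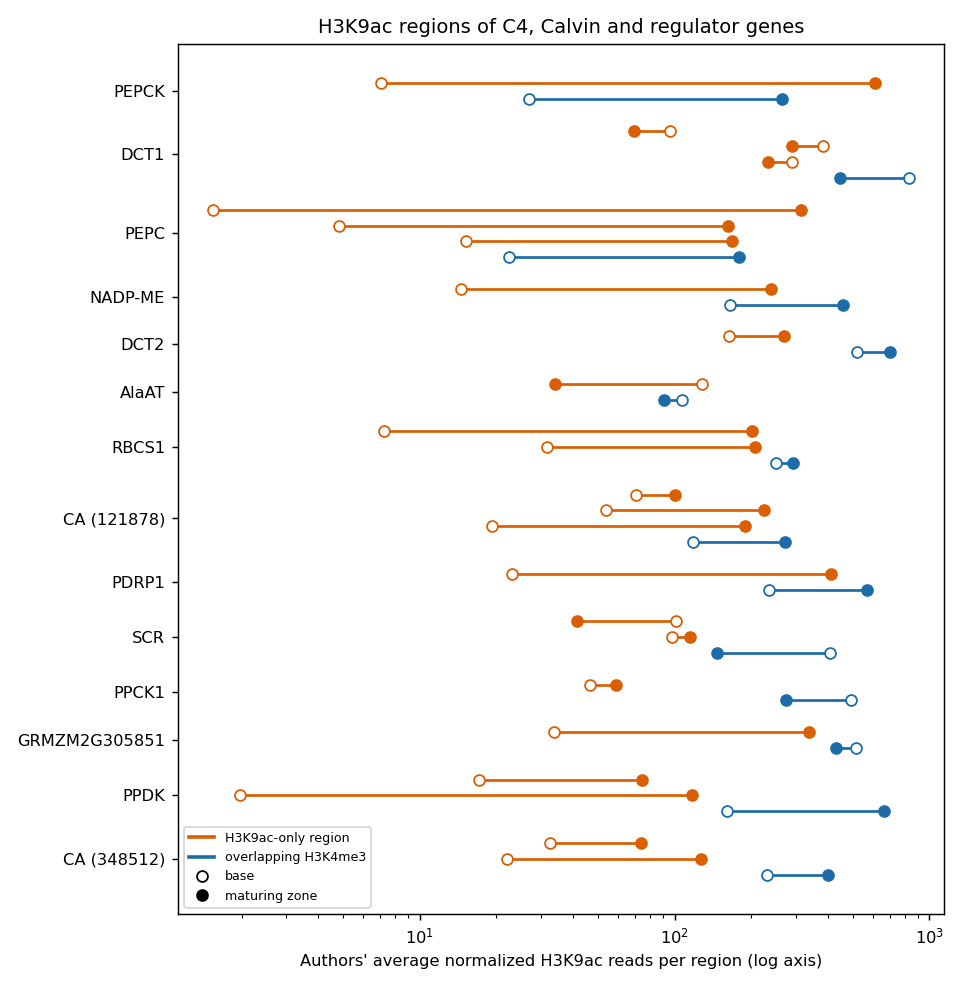
The authors' average normalized H3K9ac reads in the base (open circles) and the maturing zone (filled circles), on a log axis, for each H3K9ac-only region of the listed C4, Calvin and regulator genes (orange) and for the partner, the strongest region of the gene that overlaps H3K4me3 (blue). At PEPC the 3 orange lines start at 1.54 to 15.2 and end at 162 to 314, and at RBCS1 the orange lines are long and the blue line short.

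Transcription factor genes, found by words in the symbols and synonyms of the reference table, had 52 such regions at 39 of 154 genes. Of these 23 were gained (44.2%), 11 lost and 18 not called, with a median log2 difference of 0.35. The gained share lay above the 33.0% of all H3K9ac regions and below the 50.1% of all H3K9ac-only regions at H3K4me3-bearing genes. Their 164 regions over H3K4me3 had 43 gained, 67 lost and 54 not called. Of all regions that overlapped H3K4me3, 25.3% were gained and 35.8% lost, so this lean was not particular to these genes. The H3K9ac-only region had the higher log2 difference in 36 of 51 pairs (70.6%), near the 66.0% of all pairs. Of 8 cell cycle genes only 1 had such regions, 1 gained and 1 lost.

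Among regions with a mean at or above the median of all H3K9ac regions, the largest gains besides PEPCK were at genes without a name in the reference table. GRMZM2G174570 had a region 2643 bp from H3K4me3, at chr8:21450306-21451005, that averaged 16.9 at the base and 743 in the maturing zone, or 5.46 on the log2 scale. Its partner, at 367 and 421, was not called, and this was also the largest excess over a partner, 5.26. Its transcripts stood at 4.05 and 7.33 CPM at the base and 6.90 and 13.9 CPM in the maturing zone and did not pass the test (edgeR adjusted p = 0.372). Medians over all genes tested were 7.15 and 7.47 CPM in base libraries A and B. In maturing zone libraries A and B they were 6.10 and 5.82 CPM. The gene lay below the median in base library B and above it in the other libraries.

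At GRMZM5G892535 the region went from 8.37 to 425 and the partner from 78.9 to 294, while H3K4me3 was lost, from 247 to 74.3. GRMZM2G104226 gave the same arrangement, with 21.2 and 892 for the region, 341 and 1312 for the partner and H3K4me3 lost from 157 to 69.5. AC183319.3_FG001 had a region gained from 27.0 to 687, a partner gained from 102 to 862 and H3K4me3 gained from 12.0 to 88.0. The marks thus moved apart at 2 of these genes and together at the third. GRMZM5G892535 had no reads at the base and 145 and 119 in the maturing zone libraries A and B, with an edgeR adjusted p of 0.0167.

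At all 5 of the largest losses the partner was lost as well, and at 2 of them H3K4me3 was. Among all 1557 lost regions with a partner, the partner was lost in 902 and H3K4me3 in 386 (24.8%). At GRMZM2G412207 the region fell from 462 to 12.0 and the partner from 288 to 20.9, with H3K4me3 lost from 460 to 59.6. At GRMZM2G027976 the values were 427 and 11.3 for the region, 777 and 34.7 for the partner and 622 and 94.0 for H3K4me3. Transcripts of GRMZM2G412207 stood at 18.1 and 44.2 CPM in base libraries and at 0.371 and 0.690 CPM in maturing zone libraries, or -5.95 on the log2 scale (SE 0.83, edgeR adjusted p = 0.0138).

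At the alpha tubulin gene TUBA5 (GRMZM2G099167), whose product forms microtubules, the region fell from 432 to 25.1 and the partner from 884 to 160, while H3K4me3, at 234 and 151, was not called. TUBA5 transcripts fell from 438 and 627 CPM to 14.0 and 15.6 CPM, a log2 difference of -5.17 (SE 0.67, edgeR adjusted p = 0.0132). Tubulin genes are a family, and reads may be shared among them. GRMZM2G138268, from 553 to 31.1, and GRMZM2G096682, from 478 to 31.1, completed the 5 losses, each beside a partner lost by a smaller amount and H3K4me3 that was not called.

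Some pairs moved against each other. At GRMZM2G135236 the region was gained from 62.7 to 380 while the partner was lost from 653 to 115. At GRMZM2G014240 the values were 33.7 and 403 for the region and 339 and 137 for the partner. At GRMZM2G024530 the reverse held, with the region lost from 357 to 74.9 and the partner gained from 332 to 486. The partner's direction was that of the transcript in these 3 genes. Transcript log2 differences were -2.58 at GRMZM2G135236 (edgeR adjusted p = 0.0333), -2.46 at GRMZM2G014240 (edgeR adjusted p = 0.0287) and 2.06 at GRMZM2G024530 (edgeR adjusted p = 0.0428). These calls are weak: without single libraries the adjusted p reached 0.165 at GRMZM2G135236 (maturing zone B), 0.212 at GRMZM2G014240 (maturing zone A) and 0.246 at GRMZM2G024530 (maturing zone A). GRMZM2G135236 lost its call also without base A or maturing zone A, GRMZM2G014240 also without base B or maturing zone B, and GRMZM2G024530 without any of the 4 libraries. At GRMZM2G072578 the partner fell from 461 to 18.6 while a region 26076 bp from H3K4me3 went from 185 to 260. At GRMZM2G116689 the region was gained from 27.7 to 456 while its partner, at 416 and 430, was not called. Losses exceeded those of the partner at GRMZM2G302160, from 466 to 37.0 against 412 to 215, and at GRMZM2G032160, from 425 to 79.2 beside a partner at 888 and 920 that was not called.

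The highest mean signal belonged to GRMZM2G141328, in which a region of 2179 bp averaged 414 at the base and 1008 in the maturing zone, beside a partner at 603 and 567 that was not called. The widest region, 2234 bp at GRMZM6G399977, went from 259 to 708 while its partner was lost, from 619 to 407. Both averages lay above the medians of regions over H3K4me3 at GRMZM2G141328, and at GRMZM6G399977 that of the maturing zone did. The averages are reads per region and were not divided by width, while regions over H3K4me3 had a median width of 655 bp. The comparison and the ranking by signal therefore favour wide regions. The third of the widest, 2103 bp at GRMZM2G406074, was lost, from 369 to 256. Next to GRMZM2G351125, on an unplaced scaffold, the region averaged 439 and 743 and was gained. The region of GRMZM2G465860, also on an unplaced scaffold, averaged 545 and 631 and was not called, beside a partner lost from 112 to 60.9.

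Most regions per gene were counted at GRMZM2G351716, with 28, and GRMZM2G005201, with 17. The H3K9ac regions assigned to these genes span 1257777 bp and 1236017 bp of chromosome 5, so the deposited gene assignment there covers more than a single gene. The third was GRMZM2G443953, whose 6 regions were all gained, from 21.7 to 73.8 at the base and 57.3 to 124 in the maturing zone. The bZIP transcription factor gene bZIP113 (GRMZM2G445575) had 6 as well, of which 5 were gained and 1 was not called. Within 13534 bp and 15777 bp of chromatin, respectively, these genes carried a series of regions that were nearly all higher in the maturing zone. At 4 further genes with 5 regions each, added after their values were seen, 19 of the 20 were gained. By comparison, 33.0% of all H3K9ac regions were gained, 50.1% of the regions described here, and 57.7% of those at genes with 3 or more.

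Of all H3K4me3 regions, 11.3% were gained and 14.3% lost in the authors' deposited table. Of 2761 gained H3K9ac-only regions with a partner, the H3K4me3 region under the partner was not called in 1974 (71.5%), gained in 567 (20.5%) and lost in 220. Of the lost H3K9ac-only regions, the H3K4me3 was not called in 1056 (67.8%), lost in 386 (24.8%) and gained in 115. Where the H3K9ac-only region was not called, 80.0% of these H3K4me3 regions were not called. Among all H3K4me3 regions 74.4% were not called, between that share and those at gained and lost H3K9ac-only regions. Among all H3K4me3 regions of genes with an H3K9ac-only region, 69.6% were not called, 13.7% gained and 16.6% lost. H3K4me3 was gained beside 20.5% of gained regions, against this 13.7% and 11.3% of all H3K4me3 regions. It was lost beside 24.8% of lost regions, against 16.6% and 14.3%. These differences were not tested.

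Transcripts of 3754 of the 4478 genes could be tested. By edgeR (adjusted p under 0.05) 725 were higher in the maturing zone (19.3%, against 13.5% of all genes tested) and 692 lower (18.4%, against 15.8%). With library totals in place of TMM scaling the split was 508 higher and 1228 lower, a setting that shifts the median of all genes by -1.14 on the log2 scale. Genes with only an overlapping H3K9ac region gave 12.0% higher and 16.4% lower. Both shares were larger at genes with an H3K9ac-only region, a difference that was not tested, and their median transcript level was 11.3 to 13.3 CPM per library against 7.79 to 10.2 CPM at those without one.

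Transcript calls leaned the same way as the H3K9ac-only region, and the same way as the partner where the pair was called in opposite directions. Where only gained regions were called at a gene, 29.7% of 1843 tested genes were higher and 11.1% lower. Where only lost regions were called, 8.31% of 1083 were higher and 33.0% lower. Within genes whose partner was gained, 62.6% were higher when the H3K9ac-only region was gained too, 39.0% when it was not called and 41.7% when it was lost. Within genes whose partner was lost, 51.1% were lower when the region was lost too, 33.1% when it was not called and 39.4% when it was gained.

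Where the partner was not called, few transcripts were called at all. With a gained H3K9ac-only region 15.9% of 731 genes were higher and 3.69% lower. With none called, 6.69% of 329 were higher and 2.74% lower. With a lost region, 10.1% of 327 were higher and 8.56% lower. Across 3695 genes the Spearman correlation with the transcript's log2 difference was 0.39 for the H3K9ac-only region, 0.78 for the partner and 0.74 for H3K4me3; genes share libraries and are not independent. Where H3K4me3 was not called, 19.7% of transcripts were higher and 8.46% lower at genes with a gained H3K9ac-only region. The shares were 7.27% and 19.3% at genes with a lost one, and 7.22% and 8.59% where none was called. This split does not hold the partner's call fixed. Where the partner was not called, genes with a lost H3K9ac-only region showed no such lean to lower transcripts, with the 10.1% and 8.56% given above.

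**Figure D5:**
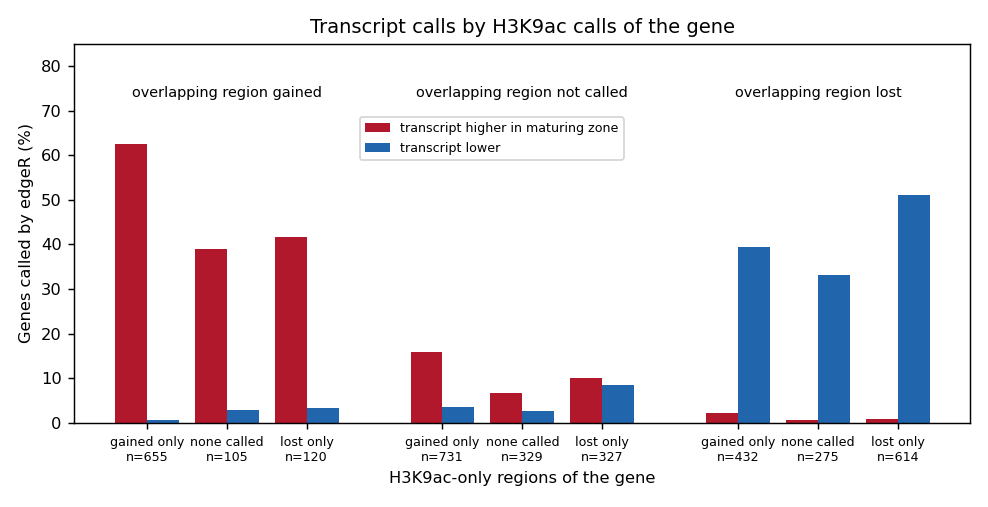
Percentage of genes with transcripts higher (red) or lower (blue) in the maturing zone by edgeR at an adjusted p under 0.05, by the call of the region overlapping H3K4me3 and of the H3K9ac-only regions of the gene, with the number of genes tested under each pair of bars. In the outer blocks most transcript calls had the direction of the overlapping region, and in each the bars are highest where the H3K9ac-only region went the same way.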

How the data were processed

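The authors' deposited RNA table holds whole-number exon read counts per gene and RPKM values in 2 libraries per zone, and a signed fold (a score) and FDR-corrected p-value. RPKM values, deposited by the authors, were not used. The ChIP tables hold, per the file headers, the authors' average normalized read signal per region and zone, a signed fold change (score) and an FDR-corrected p-value. Positive folds went with higher maturing zone averages although the header writes base over maturing zone. DiffBind 1.10.0, edgeR, Trimmomatic 0.32, CASAVA 1.8.2 and the build B73 RefGen_v3 appear without roles in the submitters' processing notes. The aligner, peak caller, scaling, ChIP replicate number and ChIP depth: not given in the sources used here.

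Regions were matched by position, with an overlap of 1 bp or more. Calls are the deposited ones; no own test was run on regions. RNA counts were fitted with edgeR 4.0.16 (R 4.3.3; filterByExpr, minimum count 10; TMM; quasi-likelihood test; Benjamini-Hochberg adjustment over 26787 genes; no covariates). The fit was tested on simulated counts. DESeq2 1.42.0 was an alternative. Gene strand, start sites and sequences of the build were not used here, so no sequence is shown and no region is placed upstream or downstream.

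Members and lists were chosen with earlier results of these data known. Named regions were those of the C4, Calvin and regulator lists, the 5 largest gains and losses and the 5 most positive and negative differences from a partner among regions at or above the median signal, the 3 genes with most regions, and the 3 highest and widest regions; the genes with 5 regions each were added after their values were seen. Lists defined by words in product descriptions could be applied only to symbols and synonyms: light harvesting, cell wall, hormone and ribosome matched 0 genes.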

Additional observations from a re-analysis of the deposited data

How the results depend on the processing

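Counts of gained and lost H3K9ac-only regions stayed within 1.5 times their main values when overlap required 50% of the region, when a gap of up to 500 bp counted as overlap, at a deposited FDR under 0.01, with a 2-fold difference, and without the 2 genes of most regions, an alternative chosen after seeing the data. The median difference from the partner lay between 0.54 and 0.59 under its alternatives, of which the limit of 10 kb and the pairs within 2-fold were also chosen after seeing the data.

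Transcript counts moved more. Genes lower in the maturing zone numbered 692 in the main fit, 1228 with library totals and 452 to 664 when 1 library was left out, the lowest without maturing zone library A; genes higher numbered 725 and 515 to 706. With the library letter as a replicate block 1554 were higher and 1517 lower; same-lettered libraries deviated together (Pearson's r = 0.80 over 26787 genes), but the labels do not say that a letter marks the same pool, and the cause was not tested. In that blocked fit 10 named genes passed that did not pass without the block, GRMZM2G174570 (edgeR adjusted p = 0.0057) and GRMZM2G305851 (0.0022) among them, and no named gene lost its call. With library totals the sign turned at GRMZM2G174570 (-0.24), GRMZM2G305851 (-0.030), GRMZM2G406074 (-0.57) and GRMZM6G399977 (-0.58), and without base library B at GRMZM2G032160 (0.49, with -1.86 as the lowest value over single libraries left out), none of them called in the main fit. The chromatin averages carry no replicate values, which limits every region to the authors' own calls.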
